A study of Mus musculus with 14 samples.

Results

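Amino acid catabolism enzymes are the 34 genes described here, chosen by symbol out of the 24411 genes listed in the counts. They comprise 13 genes of branched-chain amino acid breakdown, 6 of glycine and sarcosine, 4 of tyrosine, 3 of proline and hydroxyproline, 2 of arginine and creatine metabolism (Ass1 and Gatm), 3 oxidases of D-amino acids and 2-hydroxy acids, and 3 others (Ddc, Glud1 and Cth). RNA from whole kidneys, all cell types pooled, was sequenced in male C57/B6 mice aged 8 weeks. There were 4 libraries at day 0, 5 at day 1 and 5 at day 3 after renal ischemia/reperfusion injury (IRI), the interruption and return of the blood supply of the kidney. No genotype or drug was recorded for any group, and the sources used here do not say whether the day 0 mice were sham-operated. Nothing in the labels ties a library to 1 animal, so the p-values measure the spread between these libraries. All 34 symbols were found, and 33 passed the filter on low counts. Levels are in CPM, the reads on a gene scaled to a common total of reads on all genes (with TMM, the trimmed mean of M values), and a gene was called changed where edgeR's quasi-likelihood test gave an adjusted p under 0.05 over all 14300 genes tested.

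The libraries differed in 2 ways that touch the values below. Library names carry a number written with either 1 digit or 3. Every day 0 library has the 1-digit format, as do day 1 replicates 3, 4 and 5 and day 3 replicates 4 and 5, whereas the remaining 5 libraries have the 3-digit format. What this number format stands for is not given, and without a 3-digit library at day 0 it cannot be told apart from the day in a comparison of 3-digit libraries with day 0. Replicate 3 of day 1 and replicate 2 of day 3 also stood apart. Their summed CPM of 8 tubular injury markers was 8273 and 6310.5, against 15124 to 36497 in the other libraries of day 1 and 20377 to 43743 in the others of day 3, and 1196 to 1516 at day 0. Reads on genes ranged from 12485579 to 20476979 per library. The liver transcript Alb, checked because the liver also uses many of these enzymes, ranged from 1.7 to 28.7 CPM. Summed with Apoa2 and Serpina1a, it was 4.77 to 7.52 CPM at day 0. At day 1 this sum was 23.6 to 33.3 CPM in 1-digit and 5.81 to 8.24 in 3-digit libraries. At day 3 it was 11.0 to 19.8 and 2.42 to 2.82 CPM.

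The kidney reabsorbs filtered amino acids in the proximal tubule and breaks down part of them there, mostly inside mitochondria and peroxisomes. Branched-chain amino acids lose their amino group to a transaminase and are then oxidised by the branched-chain keto acid dehydrogenase complex and by separate downstream routes for leucine, isoleucine and valine. Glycine is split by the mitochondrial glycine cleavage system. Gatm, a mitochondrial enzyme of the proximal tubule, makes guanidinoacetate from arginine and glycine, the first step of creatine synthesis.

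RefSeq promoter windows (GRCm38.p6, 250 bases before to 50 after a gene's start) were found for 32 of the 34 genes, in 41 windows, and none was found for Cth or Dbt. The last 25 bases of 38 of the 41 windows occurred in an annotated transcript of the same gene, read on the gene's strand. Motifs of factors known from kidney tubule or injury genes were searched as fixed letters on both strands, with no test. The core letters of an HNF4A site, AGTCCA, occurred in 34.1% of the members' windows and in 14.1% of all 32851 windows. The nuclear receptor half-site AGGTCA occurred in 34.1% and 16.3%, the HNF1 half-site GTTAAT in 7.32% and 7.10%, and the AP-1 site TGAGTCA in 2.44% and 5.20%. The longer HNF4A site CAAAGTCCA, which contains the core, occurred in 2.44% and 0.475%. A match describes letters and does not show that a factor binds. Below are the upstream sequences of the 4 genes in which the difference between number formats changed most from day 1 to day 3 (Gatm, Hao2, Hpd and Prodh2), and of Gldc, which was higher at day 3. Each runs 5′ to 3′ on the gene's strand and ends before the annotated transcript, and capitals mark a match on either strand.
Gatm, chr2:122611304-122611527, minus strand, with the HNF4A core and the nuclear receptor half-site in capitals: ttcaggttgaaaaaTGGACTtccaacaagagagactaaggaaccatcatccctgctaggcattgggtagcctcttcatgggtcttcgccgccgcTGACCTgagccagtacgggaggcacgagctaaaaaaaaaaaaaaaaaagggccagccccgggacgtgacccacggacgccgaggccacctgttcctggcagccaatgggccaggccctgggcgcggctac
Hao2, chr3:98893240-98893480, minus strand, with 3 HNF1 half-sites in capitals: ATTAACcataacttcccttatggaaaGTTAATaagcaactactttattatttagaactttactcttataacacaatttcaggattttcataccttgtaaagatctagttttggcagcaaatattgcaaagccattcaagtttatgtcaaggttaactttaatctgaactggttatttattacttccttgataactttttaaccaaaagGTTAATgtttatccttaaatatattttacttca
Hpd, chr5:123182728-123182973, minus strand, with the HNF4A core and the AP-1 site in capitals: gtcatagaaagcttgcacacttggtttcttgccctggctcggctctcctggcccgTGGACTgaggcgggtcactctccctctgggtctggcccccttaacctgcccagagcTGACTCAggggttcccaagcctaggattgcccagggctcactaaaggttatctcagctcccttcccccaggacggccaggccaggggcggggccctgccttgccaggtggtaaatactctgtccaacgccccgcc
Prodh2, chr7:30493408-30493621, plus strand, with the nuclear receptor half-site and 2 HNF1 half-sites in capitals: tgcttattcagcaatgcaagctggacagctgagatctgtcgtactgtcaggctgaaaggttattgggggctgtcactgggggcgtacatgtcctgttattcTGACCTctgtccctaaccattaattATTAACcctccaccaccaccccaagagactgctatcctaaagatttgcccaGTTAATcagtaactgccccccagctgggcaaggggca
Gldc, chr19:30175442-30175691, minus strand, with no match to these letters: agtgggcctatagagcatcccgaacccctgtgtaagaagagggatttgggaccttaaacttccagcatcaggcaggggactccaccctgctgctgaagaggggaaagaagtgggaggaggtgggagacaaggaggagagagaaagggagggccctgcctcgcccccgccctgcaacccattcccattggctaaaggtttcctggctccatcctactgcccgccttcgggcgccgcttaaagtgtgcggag

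Most of the enzymes were lower after IRI. Compared with day 0, 17 of the 33 members tested were called lower at day 1 and 0 higher, where 18.7% of all genes tested were called lower and 23.3% higher. With all libraries in the fit, no member was called higher by edgeR. Glud1, at an unadjusted p of 0.027, was the only member with a log2 difference above 0, and DESeq2 called it higher. With only the 2 days compared in the fit, edgeR called 22 lower and 1 higher, where 47.0% of all genes were called in either direction. At day 3, 21 were called lower and 2 higher (Gldc and Glud1), against 13.8% and 19.5% of all genes. The median log2 difference of the members was −1.01 at day 1 and −1.08 at day 3, where that of all genes was 0.01 and 0.05. Both comparisons use the same 4 day 0 libraries. In whole tissue, fewer cells of a type and less of an RNA per cell cannot be told apart. The groups did not overlap, with every library of day 1 below every library of day 0, for 19 members at day 1 (20.5% of all genes were lower in this way and 21.5% higher, as Glud1 was), and for 20 members at day 3 (16.5% of all genes lower and 16.9% higher, as Gldc was). Of the calls, 12 of 17 at day 1 and 15 of 23 at day 3 were made also when any 1 library was left out. The day 3 count fell to 15 without replicate 3 of day 0 (23.0% of all genes called) and rose to 26 without replicate 2 of day 3 (39.7%). Without replicate 3 of day 1, day 1 calls were gained by Sardh (−1.40, adjusted p = 0.031), Hgd (−1.17, adjusted p = 0.018), Prodh (−1.08, adjusted p = 0.036), Pipox (−0.94, adjusted p = 0.043) and Fah (−0.91, adjusted p = 0.014). Sardh, Hgd, Pipox and Fah were also called at day 1 without replicate 5 of day 3 (adjusted p from 0.027 to 0.047), and Sardh and Hgd without replicate 2 of day 3 (adjusted p = 0.047 and 0.048).

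**Figure D1:**
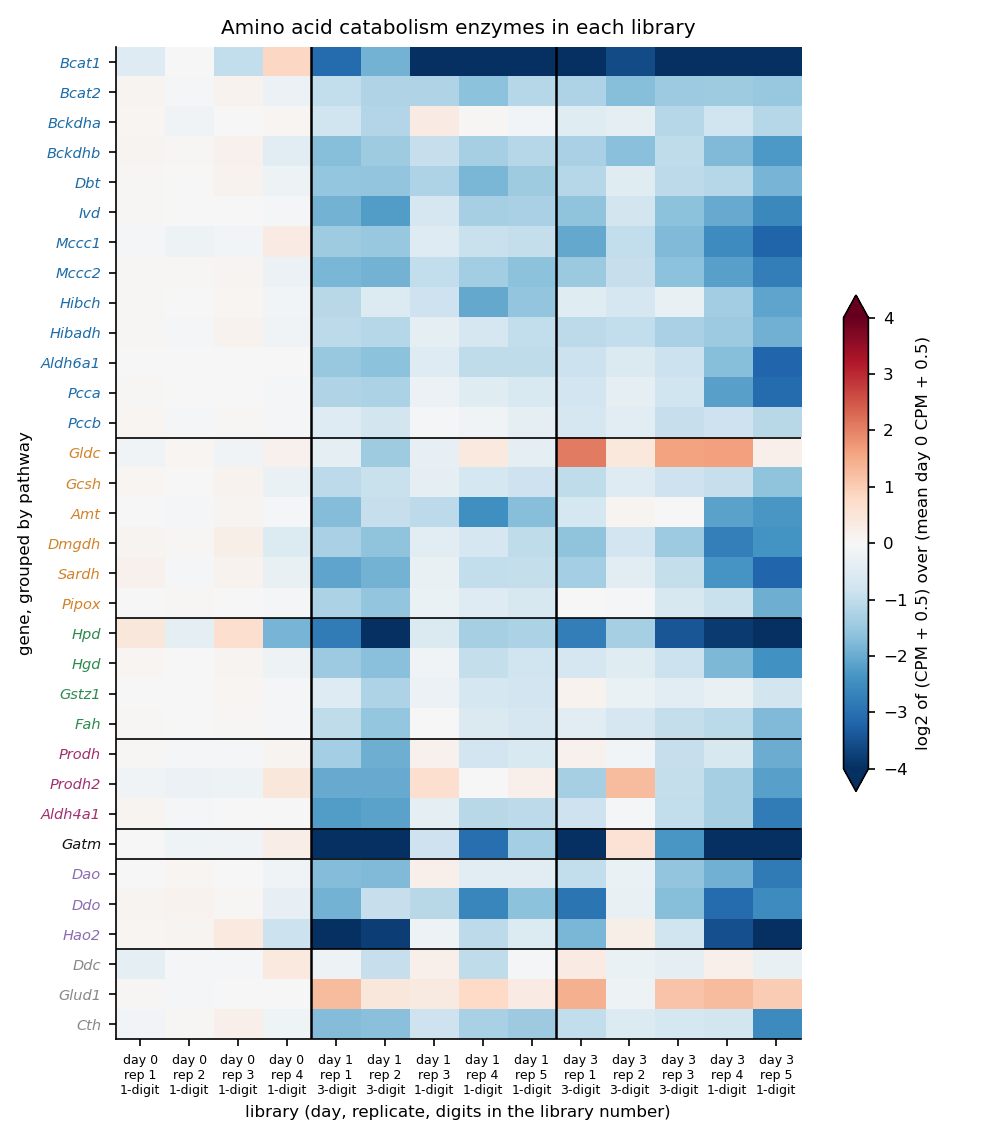
Level of the 33 tested enzymes (vertical axis, grouped by pathway) in each of the 14 libraries (horizontal axis), as the log2 of CPM plus 0.5 over the day 0 mean plus 0.5, with blue below and red above the day 0 mean. Nearly all enzymes are blue at days 1 and 3, Glud1 (except in replicate 2 of day 3) and, at day 3, Gldc are red, and replicate 3 of day 1 and replicate 2 of day 3 are the palest of their days.

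In single libraries the extent varied. The number of the 33 members below their lowest day 0 value was 31 and 32 in the 3-digit replicates 1 and 2 of day 1, and 20, 28 and 27 in the 1-digit replicates 3, 4 and 5. At day 3 it was 27, 24 and 29 in the 3-digit replicates 1, 2 and 3, and 30 in each of the 1-digit replicates 4 and 5. The share of all genes below their lowest day 0 value in each library was not computed, so these counts have no background. The summed CPM of the 34 members was 11671, 11072, 11691 and 11116 at day 0. It was 5141, 4077, 9188, 6726 and 6574 at day 1, and 7777, 9292, 6731, 5554 and 3462 at day 3. Every library after IRI was below every library of day 0, and the values of days 1 and 3 overlapped.

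Most branched-chain amino acid enzymes fell. Of the 13 genes, 10 were called lower at day 1 and 12 at day 3, against 18.7% and 13.8% of all genes. Bcat1, the cytosolic transaminase of branched-chain amino acids, stood at 112, 163, 81.9 and 289 CPM in the 4 libraries of day 0. It stood at 18.8, 43.5, 2.04, 1.94 and 4.99 CPM at day 1 and at 4.63, 13.1, 9.06, 6.12 and 1.91 CPM at day 3. No library after IRI reached the lowest day 0 value, and the 3-digit replicates 1 and 2 of day 1 were the highest of the later libraries. Its log2 difference from day 0 was −3.49 ± 0.82 (SE, adjusted p = 0.0042) at day 1 and −4.53 ± 0.86 (adjusted p = 0.0016) at day 3, the lowest of all members at both days. Bcat2, the mitochondrial transaminase, fell from 76.3 ± 8.92 CPM (SD, n = 4) to 32.3 ± 5.15 (n = 5) at day 1 and 27.5 ± 3.11 (n = 5) at day 3, with the smallest SE of the members (0.14 at both days).

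The subunits of the branched-chain keto acid dehydrogenase complex differed. Bckdha, the E1 alpha subunit, stood at 401, 345, 377 and 402 CPM at day 0, at 220.4, 169, 476, 390.1 and 354 CPM at day 1, and at 275, 289, 172, 218 and 171 CPM at day 3. At day 1 only the 3-digit replicates 1 and 2 were below the day 0 libraries, and at day 3 all 5 libraries were. The log2 difference was −0.24 ± 0.26 (adjusted p = 0.47) at day 1, the highest of the pathway, and −0.76 ± 0.26 (adjusted p = 0.038) at day 3, a call lost without any 1 of 7 libraries (adjusted p from 0.059 to 0.087). Bckdhb, the E1 beta subunit, stood at 40.8% of its day 0 mean at day 1 and Dbt, the E2 subunit, at 34.8%, and both were called lower at both days. The difference between the subunits' changes was not tested.

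Aldh6a1, methylmalonate semialdehyde dehydrogenase of valine breakdown, was the most abundant gene of the pathway per length at day 0 (221 CPM per kilobase of exon). It stood at 1287, 1262, 1287 and 1285 CPM at day 0, at 447, 412, 892, 634 and 634 CPM at day 1, and at 709, 854, 701, 389 and 142 CPM at day 3. All later libraries were below day 0, with the lowest values in the 3-digit libraries at day 1 and in the 1-digit libraries at day 3. Its log2 difference was −1.08 ± 0.38 (adjusted p = 0.033) at day 1 and −1.19 ± 0.38 (adjusted p = 0.026) at day 3. These calls were lost when any 1 of 8 libraries was left out at day 1 and any 1 of 5 at day 3, with adjusted p from 0.051 to 0.062. In leucine breakdown, Ivd (isovaleryl-CoA dehydrogenase) stood at 38.1% of day 0 at day 1 and 33.2% at day 3. Mccc1 and Mccc2, the subunits of methylcrotonyl-CoA carboxylase, stood at 49.6% and 35.0% at day 1 and at 26.4% and 31.5% at day 3. All 3 genes were called lower at both days, with the day 1 call of Mccc1 lost without any 1 of 5 libraries (adjusted p from 0.050 to 0.081). Of the valine enzymes Hibch and Hibadh, Hibch was called at day 1 (−1.14 ± 0.34) and had a log2 difference of −0.86 ± 0.33 (adjusted p = 0.061) at day 3, and Hibadh was called lower at both days. Hibch was called at day 3 without any 1 of replicates 2 and 4 of day 1 and replicate 3 of day 3 (adjusted p from 0.030 to 0.049). The propionyl-CoA carboxylase subunits Pcca and Pccb were called lower at day 3 (−1.13 ± 0.41 and −0.78 ± 0.16), and at day 1 their adjusted p was 0.17 and 0.092. The day 3 call of Pcca was lost without any 1 of 8 libraries (adjusted p from 0.054 to 0.098).

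Of the 6 genes of glycine and sarcosine breakdown, 3 were called lower at day 1, and 3 lower and 1 higher at day 3. The shares of all genes were 18.7% lower at day 1, and 13.8% lower and 19.5% higher at day 3. Gldc, the decarboxylase (P protein) of the glycine cleavage system, was the member that went against its pathway. It stood at 161, 188, 161 and 197 CPM at day 0, at 136, 65.9, 141, 231 and 139 CPM at day 1, and at 739.8, 237, 539, 554 and 205 CPM at day 3. The day 1 libraries lay on both sides of day 0, and all 5 libraries of day 3 lay above it. Relative to day 0, the log2 difference was −0.31 ± 0.37 (adjusted p = 0.51) at day 1 and 1.37 ± 0.38 (adjusted p = 0.014) at day 3, a rise to 258% of the day 0 mean. Between day 1 and day 3 it was 1.67 ± 0.36 (adjusted p = 0.0090), and leaving out any 1 library ended neither call.

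The other subunits of the glycine cleavage system were not called higher. Amt, the aminomethyltransferase (T protein), stood at 63.2, 61.6, 69.0 and 60.0 CPM at day 0, at 18.9, 33.4, 30.6, 11.3 and 19.3 CPM at day 1, and at 38.4, 68.1, 63.5, 13.9 and 12.3 CPM at day 3. All day 1 libraries were below day 0, while at day 3 the 3-digit replicates 2 and 3 were within the day 0 values. Its log2 difference was −1.48 ± 0.45 (adjusted p = 0.018) at day 1 and −0.69 ± 0.45 (adjusted p = 0.25) at day 3. Gcsh, the lipoyl carrier (H protein), was called lower at both days, at 59.7% and 52.1% of day 0. Of the enzymes that demethylate dimethylglycine and sarcosine, Dmgdh was called lower at both days (51.4% and 32.2% of day 0), and Sardh at day 3 only (39.2%, and an adjusted p of 0.069 at day 1). The Dmgdh call at day 1 was lost without any 1 of 6 libraries (adjusted p from 0.065 to 0.089) and the Sardh call at day 3 without any 1 of 7 (adjusted p from 0.053 to 0.085).

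Pipox, a peroxisomal oxidase of sarcosine and pipecolate, was the most abundant of this pathway per length at day 0 (147 CPM per kilobase). It stood at 361, 373, 369 and 354 CPM at day 0, at 152, 123, 305, 252 and 234 CPM at day 1, and at 359.6, 344, 235, 198 and 93.4 CPM at day 3. All day 1 libraries were below day 0, and the 3-digit replicate 1 of day 3 was within the day 0 values. Neither difference passed the test (−0.77 ± 0.33, adjusted p = 0.072, and −0.57 ± 0.33, adjusted p = 0.20).

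Tyrosine is degraded by Hpd, Hgd, Gstz1 and Fah, of which 1 was called lower at day 1 and 3 at day 3. Among all genes, 18.7% and 13.8% were called lower. Hpd, the dioxygenase of hydroxyphenylpyruvate, varied widely already at day 0, with 131, 73.0, 150.4 and 25.6 CPM. It stood at 13.4, 3.13, 63.7, 37.1 and 39.3 CPM at day 1 and at 13.7, 37.2, 8.37, 6.25 and 4.41 CPM at day 3. The groups overlapped because replicate 4 of day 0 was lower than 3 libraries of day 1 and 1 of day 3. On the log2 scale the difference was −1.60 ± 0.74 (adjusted p = 0.095) at day 1, the lowest of the pathway, and −2.76 ± 0.77 (adjusted p = 0.014) at day 3.

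Gstz1, maleylacetoacetate isomerase, stood at 394, 398, 424 and 383 CPM at day 0, at 280.0, 168, 338, 244 and 234 CPM at day 1, and at 442, 329, 292, 327 and 243 CPM at day 3. All day 1 libraries were below day 0, and 1 of the 5 libraries of day 3 was above it. This gave a log2 difference of −0.66 ± 0.19 (adjusted p = 0.014) at day 1, and −0.29 ± 0.19 (adjusted p = 0.26) at day 3. Fah, fumarylacetoacetase, was the most abundant of the pathway per length at day 0 (239 CPM per kilobase). It stood at 547, 528, 546 and 504 CPM at day 0, at 264, 180.1, 533, 354 and 332 CPM at day 1, and at 391, 332, 274, 251 and 155 CPM at day 3. Only replicate 3 of day 1 was within the day 0 values. The log2 difference was −0.68 ± 0.28 (adjusted p = 0.064) at day 1 and −0.92 ± 0.28 (adjusted p = 0.021) at day 3, where it was −0.91 (adjusted p = 0.050, above the threshold) without replicate 3 of day 0. Hgd, homogentisate dioxygenase, stood at 53.4% of day 0 at day 1 (adjusted p = 0.057) and was called lower at day 3 (47.3%). That call was lost without any 1 of 6 libraries.

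Of the 3 proline genes, 1 was called lower at day 1 and 0 at day 3 by edgeR, against 18.7% and 13.8% of all genes. At day 3, 1 of the 3 (Aldh4a1) had an unadjusted p under 0.05 in edgeR, and without replicate 2 of day 3 Aldh4a1 and Prodh2 were called lower. Aldh4a1, the dehydrogenase that completes proline breakdown to glutamate, was the most abundant per length at day 0 (176 CPM per kilobase). It stood at 926, 812, 867 and 855 CPM at day 0, at 182, 194, 661, 402 and 416 CPM at day 1, and at 491, 825, 441, 345 and 123 CPM at day 3. All day 1 libraries were below day 0, and replicate 2 of day 3 was within the day 0 values. Its log2 difference was −1.22 ± 0.44 (adjusted p = 0.037) at day 1, a call lost without any 1 of 8 libraries (adjusted p from 0.058 to 0.075), and −0.96 ± 0.44 (adjusted p = 0.10) at day 3, where it was −1.30 (adjusted p = 0.026) without replicate 2 of day 3. Of the 50-base words of 1 Aldh4a1 transcript, 66.3% also occur in the readthrough gene Gm21969, so its counts are uncertain.

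Prodh2, the dehydrogenase of hydroxyproline, stood at 45.7, 42.1, 43.0 and 69.1 CPM at day 0, at 12.0, 12.1, 80.0, 49.2 and 58.2 CPM at day 1, and at 19.5, 122, 25.3, 19.8 and 10.7 CPM at day 3. The 3-digit libraries of day 1 and 4 of the 5 libraries of day 3 were below day 0, while replicate 3 of day 1 and replicate 2 of day 3 were above it. Its log2 difference was −0.24 ± 0.67 (adjusted p = 0.79) at day 1 and −0.34 ± 0.67 (adjusted p = 0.72) at day 3. Without replicate 2 of day 3 the day 3 value was −1.40 (adjusted p = 0.046), and Prodh2 was called lower. Prodh, proline dehydrogenase, stood at 60.3% and 69.4% of day 0 (adjusted p = 0.16 and 0.33).

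Gatm was the most abundant member per length at day 0 (343 CPM per kilobase) and the one with the widest range later. It stood at 1038, 913, 928 and 1238 CPM at day 0, at 23.5, 37.7, 580.5, 126 and 403 CPM at day 1, and at 43.6, 1529, 205, 38.5 and 36.3 CPM at day 3. Every library of day 1 was below day 0. At day 3, 4 libraries were below and replicate 2 was above every library of day 0. Relative to day 0, the log2 difference was −2.14 ± 1.11 (adjusted p = 0.13) at day 1 and −1.47 ± 1.10 (adjusted p = 0.31) at day 3. Without replicate 2 of day 3, Gatm was called lower at day 1 (−2.14, adjusted p = 0.045) and at day 3 (−3.67, adjusted p = 0.0073). The day 1 difference itself did not move, and the spread behind its p-value is estimated from the libraries of all days together. Ass1, argininosuccinate synthase of arginine synthesis, had 0 to 6 reads in each library and was not tested. Of the 50-base words of 1 of its transcripts, 55.3% also occur in the pseudogene Gm5424, and reads that fit both places are not counted here, so this level is uncertain.

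**Figure D2:**
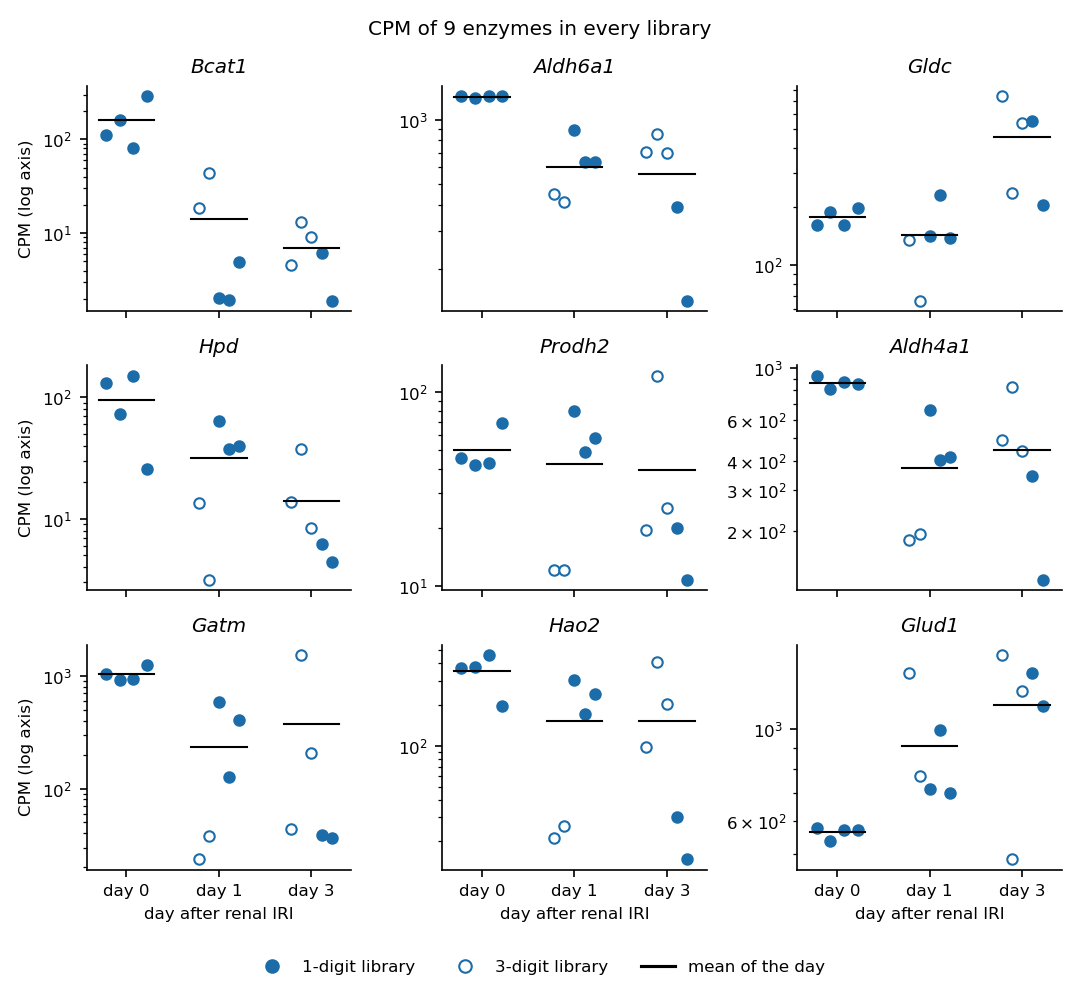
CPM on log axes (vertical, with a scale of its own for each gene) of 9 enzymes in every library by day (horizontal). Filled points are 1-digit libraries, open points 3-digit libraries and lines the mean of a day. Gatm and Hao2 are lowest in the open points at day 1 and, with replicate 1 of day 3 also low for Gatm, in the filled points at day 3, while the means of Gldc and Glud1 are higher at day 3 than at day 0.

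Of the oxidases of D-amino acids and 2-hydroxy acids, 1 of 3 was called lower at day 1 and 2 of 3 at day 3. Among all genes, 18.7% and 13.8% were called lower. Hao2, a peroxisomal oxidase of long-chain 2-hydroxy acids, was the most abundant per length at day 0 (171 CPM per kilobase). It stood at 370.2, 378, 462 and 194 CPM at day 0, at 21.2, 25.6, 305, 169.6 and 239.9 CPM at day 1, and at 98.2, 413, 200.2, 30.2 and 14.7 CPM at day 3. The groups overlapped at both days, through the 1-digit libraries at day 1 and the 3-digit libraries at day 3. On the log2 scale the difference was −1.21 ± 0.86 at both days (adjusted p = 0.27 and 0.29), and without replicate 2 of day 3 it was −2.03 (adjusted p = 0.076) at day 3. Ddo, the D-aspartate oxidase, stood at 71.1, 72.7, 68.4 and 52.5 CPM at day 0, at 17.6, 34.7, 30.7, 10.5 and 21.0 CPM at day 1, and at 8.35, 54.0, 20.0, 7.40 and 11.1 CPM at day 3. All later libraries were below day 0 except replicate 2 of day 3. Ddo was called lower at both days (−1.53 ± 0.51, adjusted p = 0.025, and −1.71 ± 0.51, adjusted p = 0.019), and the day 1 call was lost without any 1 of 5 libraries.

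Dao, the oxidase of neutral D-amino acids, stood at 412, 427, 408 and 370.0 CPM at day 0, at 121, 118, 462, 299 and 303 CPM at day 1, and at 203, 338, 134, 107 and 56.6 CPM at day 3. Replicate 3 of day 1 was above day 0, and all libraries of day 3 were below it. This gave a log2 difference of −0.63 ± 0.46 (adjusted p = 0.27) at day 1 and −1.27 ± 0.46 (adjusted p = 0.046) at day 3, a call lost without any 1 of 10 libraries (adjusted p from 0.054 to 0.099).

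Of the other 3 members, Cth fell, Glud1 rose and Ddc was not called. Glud1, glutamate dehydrogenase, which links glutamate to the citric acid cycle, stood at 579, 538, 571 and 571 CPM at day 0, at 1363, 768, 718, 992 and 701 CPM at day 1, and at 1502, 486, 1234, 1358 and 1134 CPM at day 3. All later libraries were above day 0 except replicate 2 of day 3, which was below it. The log2 difference was 0.69 ± 0.28 (adjusted p = 0.061) at day 1 and 1.02 ± 0.28 (adjusted p = 0.014) at day 3. Without replicate 2 of day 3 the day 1 value was called (0.69, adjusted p = 0.012). Part of the Glud1 sequence (20.1% of the words of 1 transcript) also occurs in the pseudogene Glud-ps.

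Cth, cystathionine gamma-lyase of cysteine synthesis, stood at 244, 274, 301 and 233 CPM at day 0, at 78.9, 82.7, 149, 107 and 95.4 CPM at day 1, and at 132, 180.5, 160.1, 156 and 44.9 CPM at day 3. All later libraries were below day 0. Its log2 difference was −1.36 ± 0.30 (adjusted p = 0.0033) at day 1 and −0.96 ± 0.30 (adjusted p = 0.025) at day 3, where the call was lost without replicate 2 or 3 of day 0 (adjusted p from 0.056 to 0.068). Ddc, the aromatic amino acid decarboxylase that makes dopamine in the tubule, stood at 44.2 ± 9.90, 35.2 ± 12.5 and 42.5 ± 9.83 CPM at days 0, 1 and 3 (SD). It was called in none of the 8 comparisons made, and its log2 difference from day 0 had an approximate 95% interval of −0.82 to 0.17 at day 1 and −0.55 to 0.44 at day 3.

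**Figure D3:**
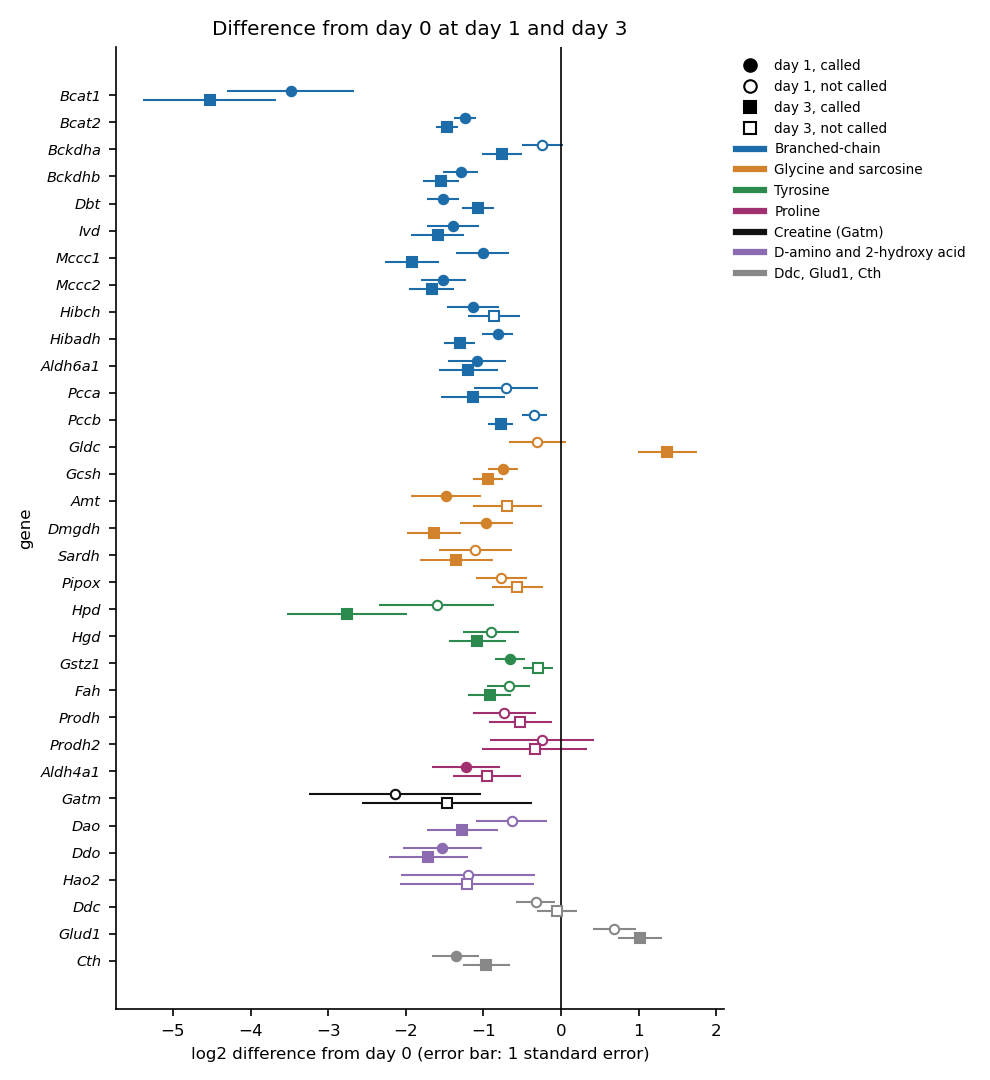
Log2 difference from day 0 (horizontal axis, bars 1 standard error) of the 33 tested enzymes (vertical axis) at day 1 (circles) and day 3 (squares), filled where called and coloured by pathway. All points of the branched-chain enzymes lie below 0, and Gldc at day 3 and Glud1 at both days lie above it.

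Between day 1 and day 3, with all libraries together, 1 of 33 members was called (Gldc, higher), where 7.39% of all genes were called lower and 8.52% higher. Without replicate 2 of day 1, or without replicate 2 of day 3, 4 members were called, and without replicate 5 of day 3, 3 were. In these fits 23.5%, 15.4% and 21.7% of all genes were called in either direction. The 2 number formats gave opposite directions. Within the 1-digit libraries (3 at day 1 and 2 at day 3) 22 members were called lower at day 3 than at day 1 and 2 higher (Gldc and Glud1), against 18.1% and 17.9% of all genes. Within the 3-digit libraries (2 at day 1 and 3 at day 3) 13 members were called higher at day 3, against 8.46% of all genes. Both fits, with 1 term per day, also held the day 0 libraries, all 1-digit, which enter the estimate of the spread. A fit within a format without them was not made. Gatm had a log2 difference of −3.32 (adjusted p = 0.0012) within the 1-digit and 4.27 (adjusted p = 0.044) within the 3-digit libraries. Hao2 had −3.42 (adjusted p = 0.00044) and 3.34 (adjusted p = 0.0075). Gldc was called higher within both formats, at 1.14 (adjusted p = 0.027) and 2.32 (adjusted p = 0.011).

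Compared within a day, the formats differed in opposite ways. At day 1, 14 members were lower and 1 higher in 3-digit libraries relative to 1-digit ones, against 16.4% and 18.6% of all genes. The largest of these differences on the log2 scale were −3.59 ± 1.11 for Gatm (adjusted p = 0.024), −3.35 ± 0.58 for Hao2 (adjusted p = 0.0012), −2.51 ± 0.80 for Hpd (adjusted p = 0.027) and −2.37 ± 0.65 for Prodh2 (adjusted p = 0.014). Bcat1 was the 1 higher member, at 3.41 ± 0.64 (adjusted p = 0.0019). At day 3, 15 members were higher in the 3-digit libraries and 0 lower, against 10.3% and 8.22% of all genes, again led by Gatm (3.99 ± 1.13, adjusted p = 0.030) and Hao2 (3.40 ± 0.58, adjusted p = 0.0051). No member had a negative difference with an unadjusted p under 0.05 at day 3, and DESeq2 also called 0 lower. These counts rest on few libraries. The day 1 count was 3 without replicate 2 of day 1. The day 3 count was 1 without replicate 5 of day 3, and 1 where only the day 3 libraries were fitted. Of the single calls, those of Bcat1 and Hao2 at day 1 and of Pcca at day 3 (1.94 ± 0.24, adjusted p = 0.0013) were made whichever library was left out.

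The format difference itself differed between the days for 22 of 33 members, against 17.6% of all genes in either direction, and was greater at day 3 for all 22. Of all 14300 genes tested, 1302 had a difference called greater at day 3 and 1208 one called smaller. For 21 of these 22 members it was negative at day 1 and positive at day 3, with Amt positive at both. The 22 were chosen by this change, which favours opposite signs. Over all 33 members, 26 had opposite signs at the 2 days. The change is computed from the same groups of libraries as the paragraphs above and is not a further result. The change in the difference was 7.58 ± 1.59 for Gatm (adjusted p = 0.0067) and 6.75 ± 0.82 for Hao2 (adjusted p = 0.00049), and 0.73 to 4.39 for the others called. Of the 22 calls, 15 were made whichever library was left out. Bcat1 (−2.28 ± 0.93, adjusted p = 0.10), Glud1 (−0.62 ± 0.51, adjusted p = 0.42) and Bcat2 (−0.22 ± 0.26, adjusted p = 0.59) were the 3 members with a negative change.

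**Figure D4:**
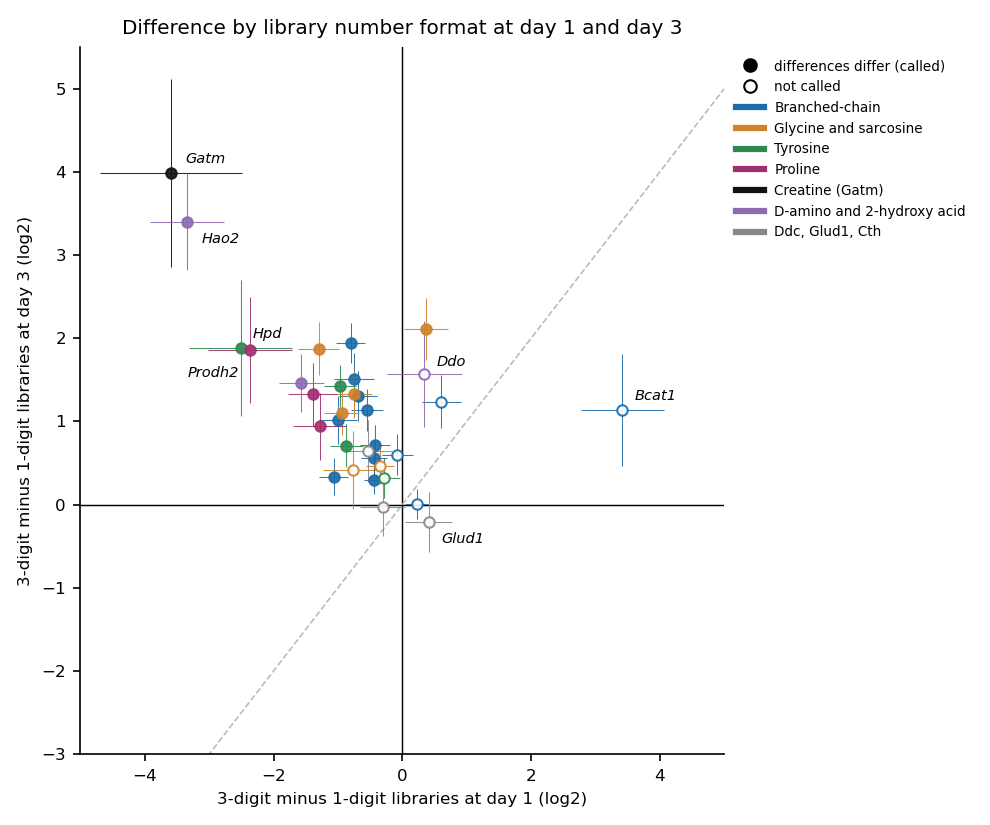
Log2 difference of 3-digit from 1-digit libraries at day 1 (horizontal axis) and day 3 (vertical axis) for the 33 tested enzymes, with bars of 1 standard error, coloured by pathway and filled where the difference between the 2 days was called. The dashed line marks equal differences. Most points lie in the upper left, negative at day 1 and positive at day 3, with Gatm and Hao2 farthest out and Bcat1 farthest right.

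Within the 1-digit libraries, the only format present at every day, 19 members were called lower at day 1 than at day 0 and 0 higher, against 29.6% and 28.9% of all genes. The count was 12 without replicate 4 of day 1 and 11 without replicate 5, where 48.9% and 50.2% of all genes were called in either direction. With all libraries in the fit, no member was higher at an unadjusted p under 0.05, and DESeq2 called 0 higher. With only the libraries compared in the fit, edgeR called 22 lower and 1 higher (65.8% of all genes in either direction). Without replicate 2 of day 3 it called 21 lower and 1 higher (60.8%). The Glud1 values of the 1-digit libraries of day 1 (718, 992 and 701 CPM) were all above day 0. At day 3, 29 were called lower and 2 higher, against 25.1% and 28.6%, with a median log2 difference of −1.89. This day 3 comparison has 2 libraries. Gatm had a log2 difference of −1.48 ± 0.82 (adjusted p = 0.14) at day 1 and −4.78 ± 1.17 (adjusted p = 0.0040) at day 3, and Hao2 had −0.56 ± 0.42 (adjusted p = 0.27) and −3.96 ± 0.59 (adjusted p = 0.00016). For Gldc the day 3 value was 1.10 ± 0.43 (adjusted p = 0.042) and for Glud1 1.14 ± 0.33 (adjusted p = 0.011). The Gldc call was lost without any 1 of 7 libraries, with a log2 difference of 0.22 (adjusted p = 0.73) without replicate 4 of day 3, and the Glud1 call without replicate 4 of day 3 (1.01, adjusted p = 0.069). Gstz1 and Ddc were the 2 members not called at day 3.

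Grouped by compartment, 13 of 22 mitochondrial, 1 of 4 peroxisomal and 3 of 7 cytosolic members tested were called lower at day 1, with median log2 differences of −1.05, −0.99 and −0.91. At day 3 the counts were 14, 2 and 5, and the 2 members called higher were mitochondrial. Over all genes, 18.7% were called lower and 23.3% higher at day 1, and 13.8% and 19.5% at day 3. Differences between compartments were not tested. Of 65 other genes of amino acid pathways, 60 were tested, of which 26 were called lower and 1 higher at day 1, and 24 lower and 2 higher at day 3. In the branched-chain pathway 13 of 16 were called lower at day 1 and 12 of 16 at day 3, among them Acadsb, the dehydrogenase of isoleucine breakdown (−1.37 ± 0.25 at day 1), and Mut, methylmalonyl-CoA mutase (−1.10 ± 0.29). Uroc1, urocanase of histidine breakdown, had the lowest value at both days (−4.12 ± 0.57, adjusted p = 0.00013, and −3.59 ± 0.55, adjusted p = 0.00041). Arg2, the mitochondrial arginase, was called higher at both days (2.68 ± 0.65, adjusted p = 0.0051, and 2.44 ± 0.64, adjusted p = 0.011), and Hal, histidine ammonia-lyase, at day 3 (3.03 ± 0.82, adjusted p = 0.012).

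Markers of the proximal tubule and of later tubule segments were lower as well. The summed CPM of 10 markers of its S1 and S2 segments was 13603 to 15252 at day 0. In replicates 1 to 5 it was 32.0%, 27.5%, 96.7%, 62.4% and 62.8% of the day 0 mean at day 1, and 55.3%, 94.5%, 56.1%, 38.2% and 19.9% at day 3. The summed members stood at 45.1%, 35.8%, 80.7%, 59.1% and 57.7%, and at 68.3%, 81.6%, 59.1%, 48.8% and 30.4%, in the same libraries. In both sums replicate 3 of day 1 and replicate 2 of day 3 were the highest of their days, and replicate 2 of day 1 and replicate 5 of day 3 the lowest. Of the S1 and S2 markers 4 of 10 were called lower at day 1 and 3 of 10 at day 3, and of 6 markers of the S3 segment 5 at each day, with sums of 3431 to 4059.7 CPM at day 0, 429 to 1521 at day 1 and 152 to 1330.3 at day 3. Markers of the thick limb were called lower for 4 of 5 at both days, with sums at 31.4% to 59.9% of the day 0 mean at day 1 and 20.7% to 34.2% at day 3. Those of the distal tubule and collecting duct were called lower for 3 of 8 and 6 of 8, with sums at 52.7% to 66.3% and 22.4% to 47.0%. Tubular injury markers were called higher for 7 of 8 at both days. Fibroblast and pericyte markers summed to 124 to 134 CPM at day 0, 144 to 441 at day 1 and 522 to 1152 at day 3. They were called higher for 2 of 6 at day 1 and 5 of 6 at day 3. The sums of 5 endothelium markers were 201 to 264 CPM at day 0, 254 to 436 at day 1 and 129 to 592 at day 3. Leukocyte markers were called higher for 5 of 9 and 6 of 9 and lower for 1 at each day, with sums of 121 to 191 CPM at day 0, 155 to 387 at day 1 and 221 to 559 at day 3. Proliferation markers summed to 238, 331 and 435 CPM in day 3 replicates 1 to 3 (3-digit), to 43.1 and 15.9 in the 1-digit ones, and to at most 41.4 at the earlier days. For the marker counts too, the shares of all genes were 18.7% lower and 23.3% higher at day 1, and 13.8% and 19.5% at day 3. The part of these cell types and states in the members' changes was not tested.

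**Figure D5:**
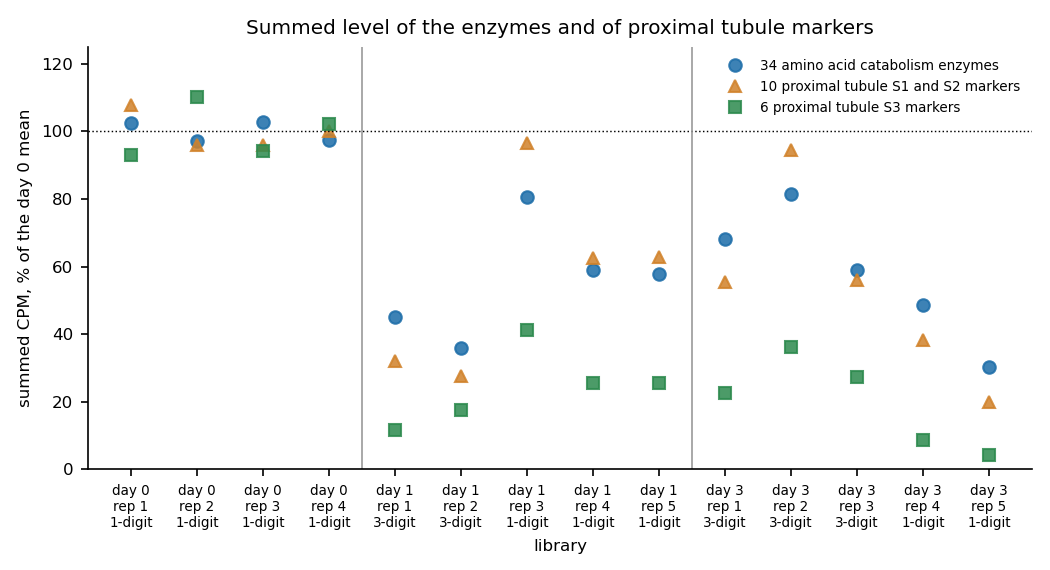
Summed CPM of the 34 enzymes (circles), of 10 proximal tubule S1 and S2 markers (triangles) and of 6 S3 markers (squares) in each library (horizontal axis), as a percentage of the day 0 mean (vertical axis, dotted line at 100). In the libraries after IRI the enzymes range from 30.4% to 81.6% and the S1 and S2 markers from 19.9% to 96.7%, and the S3 markers lie below both.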

How the data were processed

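Kidney RNA of 14 libraries (4, 5 and 5 at days 0, 1 and 3) was extracted with TRIzol and sequenced from Illumina TruSeq libraries. Per the labels, the authors trimmed reads with Trimmomatic and aligned them with STAR to mm10, with versions not given in the sources used here, and deposited STAR's raw counts for each gene (uniquely mapped reads, not normalized). Uniquely mapped counts are lowered for genes with near-identical copies. The strand column used held 98.5% to 98.7% of strand-assigned reads. Rows naming no gene held 29.0% to 38.3% of reads and were left out. Groups came from the labels and the number format from the library names.

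The members and all lists were chosen with earlier results of these data known. Differences were tested by edgeR 4.0.16 in R 4.3.3 (filterByExpr by day, TMM, quasi-likelihood test, Benjamini-Hochberg over 14300 genes) with 1 term per day, or 1 term per day and number format for comparisons of formats and within the 1-digit libraries. The study's text states tests of group means for its measurements, and for its proteomics a t test with a permutation FDR. It names no test for its RNA sequencing counts. The SE was derived from the F value, and 2 was the prior count for log2 CPM. The scripts were tested on simulated data. Values by library were named for the lowest and highest day 1 difference, the most abundant gene per length, and any gene against its pathway, in each pathway. Replicates were compared by chi-square, which per degree of freedom was 5.69 to 228, more than sampling noise gives, so none was merged. Gene models came from GENCODE vM21 and promoters from RefSeq GRCm38.p6. Alternatives included unstranded counts, RLE or total-count scaling, filters (none, or at least 10 counts in every library) and DESeq2 1.42.0. Others were only the libraries compared, a replicate block, the format as a term, and only 1 format after day 0 with all day 0 libraries kept. A shorter promoter window was also tried, and each library was left out in turn. Read counts behind tested members ranged down to 26 (Bcat1), and counting error is not otherwise included.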

Additional observations from a re-analysis of the deposited data

Results flagged for a closer look

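In 22 members the difference between 3-digit and 1-digit libraries differed between day 3 and day 1 by edgeR's test, with a log2 change in the difference of 7.58 for Gatm, 6.75 for Hao2, 4.39 for Hpd, 4.23 for Prodh2, 3.18 for Sardh, 3.03 for Dao, 2.75 for Pcca and 2.71 for Aldh4a1. Values were 2.39 for Hgd, 2.25 for Aldh6a1, 2.22 for Prodh, 2.08 for Dmgdh, 2.05 for Pipox, 2.02 for Ivd and 1.99 for Mccc1. They were 1.75 for Amt, 1.68 for Mccc2, 1.58 for Fah, 1.40 for Bckdha, 1.14 for Bckdhb, 1.00 for Hibadh and 0.73 for Pccb. All are positive. The part of the tubule marker sums in these values was not tested.

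A single library was flagged as apart from the rest of its day (Dixon's test on log2 CPM) in 4 of 99 groups of values, where chance gives about 4.95. This test weighs a gap against the range of its group, so a small gap can be flagged. Glud1 in replicate 2 of day 3 was at 8.93, with the other day 3 libraries at 10.1 to 10.6. Cth in replicate 5 of day 3 was at 5.49, against 7.04 to 7.50. Prodh2 in replicate 4 of day 0 was at 6.11, against 5.40 to 5.52. Aldh6a1 in replicate 2 of day 0 was at 10.302, against 10.327 to 10.330 in the others, a small gap (1262 against 1285 to 1287 CPM).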

How the results depend on the processing

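Over all comparisons, 5940 values of single members were recomputed. Of these, 83 changed sign with no call in either fit, 186 gained a call and 232 lost one. A further 8 reversed (the sign changed, with a call in at least 1 of the fits), all between day 3 and day 1. With only 3-digit libraries Aldh6a1 was at 0.81, Pcca 0.62, Sardh 1.16, Hgd 0.90 and Hao2 3.34, and with only 1-digit libraries Pipox was at −0.87, Aldh4a1 −1.09 and Gatm −3.32. Of 3167 recomputed values of called members, 2935 stayed called in the same direction. The counts called at day 1 and day 3 against day 0 stayed within 1.5 times under the alternatives tried, with 1 exception besides the libraries left out below. It was 29 at day 1 with the 3-digit libraries of day 1 set against the 1-digit day 0 libraries, where 42.9% of all genes were called. There the format cannot be told apart from the day. Between days 1 and 3 the count of 1 became 2 with the unstranded column, 2 with total counts, 4 with DESeq2, 24 with only 1-digit and 13 with only 3-digit libraries. The format count at day 3 became 1 with only the libraries compared. Leaving out each library in turn gave 12 to 22 at day 1, 15 to 26 at day 3, 1 to 4 between days 1 and 3, 3 to 19 by format at day 1, 1 to 21 by format at day 3, 16 to 23 for the change between them, and 11 to 22 and 28 to 32 within the 1-digit libraries at days 1 and 3. With a replicate block the counts were 13, 20 and 1. Of 13 pairs of libraries sharing a number, 4 correlated over 0.1, with values from −0.17 to 0.26. These values were not set against pairs with different numbers, so they cannot tell whether the numbers pair the samples. Total counts in place of TMM moved the median of all genes by 0.14 at day 3 and by 0.21 between formats at day 1. In the 250 bases before the start alone, the HNF4A core and the nuclear receptor half-site each occurred in 29.3% of the members' windows and the longer HNF4A site in 0. The causes of these shifts were not tested.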
